A study of Macaca mulatta with 102 samples.

Results

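Compact loci are the rows of the deposited expression table whose genomic span is between 200 and 1000 bases, counted as end minus start plus 1. Of 42701 rows, 4239 had such a span and 2 more were left out by the rule. The choice used position alone and no measured level. A further 5955 rows were shorter than 200 bases and 32505 were longer than 1000 bases. Rows carry Ensembl transcript identifiers and coordinates of the rhesus macaque build rheMac2, and most come without a gene symbol. The start in the table may lie 1 base before the first base of a model, because end minus start was a multiple of 3 for 2046 compact loci (48.3%) whereas the span as defined was one for 26.8%.

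RNA was sequenced from milk and mammary tissue of 6 lactating rhesus macaque mothers, M1 to M6, to ask how well the RNA of milk stands for that of the gland. There were 6 mammary biopsies, 12 samples of milk cells, 10 of milk fat and 6 of a further milk fraction, called S10 milk here. Milk cells came from all animals at day 30 and day 90 after birth, and milk fat from 4 animals at day 30 (not M4 or M5) and 6 at day 90. Each animal was biopsied once, M3, M4 and M6 at day 30 and M1, M2 and M5 at day 90, so that day and animal cannot be told apart in the biopsies. No group carried a genetic change. All animals were multiparous, nursed male infants, and were milked under sedation with oxytocin after a period without suckling. Milk fat was the layer lifted from centrifuged milk, milk cells were the washed pellet, and the biopsy was a vacuum-assisted core of the gland. S10 milk is of day 90 only, and its samples bear the labels FatS10 (M1, M2, M5 and M6), FatsS10 (M4) or Skim10m (M3), which do not say how the fraction was made. The study describes cell-free milk samples that match it in day and number, but the labels do not tie S10 milk to them. Since M3 alone is labelled as skim, results on S10 milk are also given without M3.

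A compact locus is often a gene without introns or with very short ones. Genes of histones, olfactory receptors and type I interferons are of this kind and lie in clusters, the variable segments of antigen receptor genes are short and clustered as well, and copies of abundant messenger RNAs pasted back into the genome (retrocopies) also lack introns. The fat globules of milk carry trapped cytoplasm of the secreting epithelial cells, milk cells are a mixture that includes leukocytes, and a biopsy holds epithelium, stroma and blood-borne cells together. Which compact locus is a histone, a receptor or a retrocopy could not be read here, because no table at hand pairs most rows with symbols.

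Compact loci lay on all autosomes and X, most on chromosome 1 (406), 7 (349), 14 (308), 4 (289) and X (257), and fewest on chromosome 18 (61). By span, 779 were of 200 to 299 bases, 1420 of 300 to 499, 1007 of 500 to 749 and 1033 of 750 to 1000. A length between start and end of whole codons, a multiple of 3, was found in 48.3% of compact loci against 34.0% of rows over 1000 bases, and in 51.7% of the compact loci that overlapped no other row. There were 3239 of these stand-alone loci. The other 1000 overlapped another row, 823 of them lying inside a longer one. The libraries were not stated to keep strand, so reads of overlapping rows cannot be told apart and their FPKM depends on how the authors' software divided them. Reads that match near-identical copies elsewhere in the genome could likewise have been divided.

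FPKM is the number of fragments per kilobase of transcript, relative to all fragments mapped in the sample. From the step size of low values in 569 stand-alone rows of 850 to 1200 bases, about 22.6 to 50.1 reads stood behind 1 FPKM in 1000 bases in a sample (median 30.8), and proportionally fewer behind 1 FPKM in a shorter locus. The transcripts of the milk proteins beta-casein (CSN2) and alpha-lactalbumin (LALBA), the defining products of lactating epithelium, were abundant in every sample. Their lowest values over all 34 samples were 1.991e+05 FPKM for CSN2, in milk fat, and 2.765e+04 for LALBA, in a biopsy. The day 30 milk fat sample of M6 stood apart, with 30.65% of its summed FPKM in rows under 200 bases, against a median of 3.76% for milk fat, and shares of summed FPKM are therefore also given without those rows. The samples are bulk RNA, in which fewer cells of a type and less RNA per cell cannot be told apart.

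Most compact loci were not detected at this depth. Of the 4239, 914 (21.6%) were listed at 0 in every sample and 2896 (68.3%) stayed below 1 FPKM in every sample, against 44.65% of rows over 1000 bases. At the other end, 597 (14.1%) reached 1 FPKM in every sample, against 21.7% of the longer rows. With a mean of at least 1 FPKM taken as detection, 906 compact loci (21.4%) were detected in the biopsies, 892 (21.0%) in milk cells, 888 (20.95%) in milk fat and 859 (20.3%) in S10 milk. The corresponding shares of rows over 1000 bases were 38.4%, 38.8%, 35.4% and 36.5%. These are counts over loci and were not tested.

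Detection changed with span. In the biopsies 15.02% of loci of 200 to 299 bases were detected, 25.6% of those of 300 to 499, 24.0% of those of 500 to 749 and 17.8% of those of 750 to 1000. The loci of 750 to 1000 bases were thus detected less often than those of 300 to 749, and the same dip was seen in the 3 milk fractions. The shortest class also had the most loci listed at 0 throughout, 44.9%, against 12.97% of the longest class. Just outside the limits, rows of 190 to 199 bases were detected in 16.5% and rows of 1001 to 1010 bases in 24.4% in the biopsies. Just inside, the values were 15.2% at 200 to 209 bases and 3.33% at 991 to 1000 bases, where there were only 30 loci. Stand-alone loci were detected more often (23.2% in the biopsies) than overlapping ones (15.5%), and loci of whole-codon length more often (25.5%) than the rest (17.5%).

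**Figure D1:**
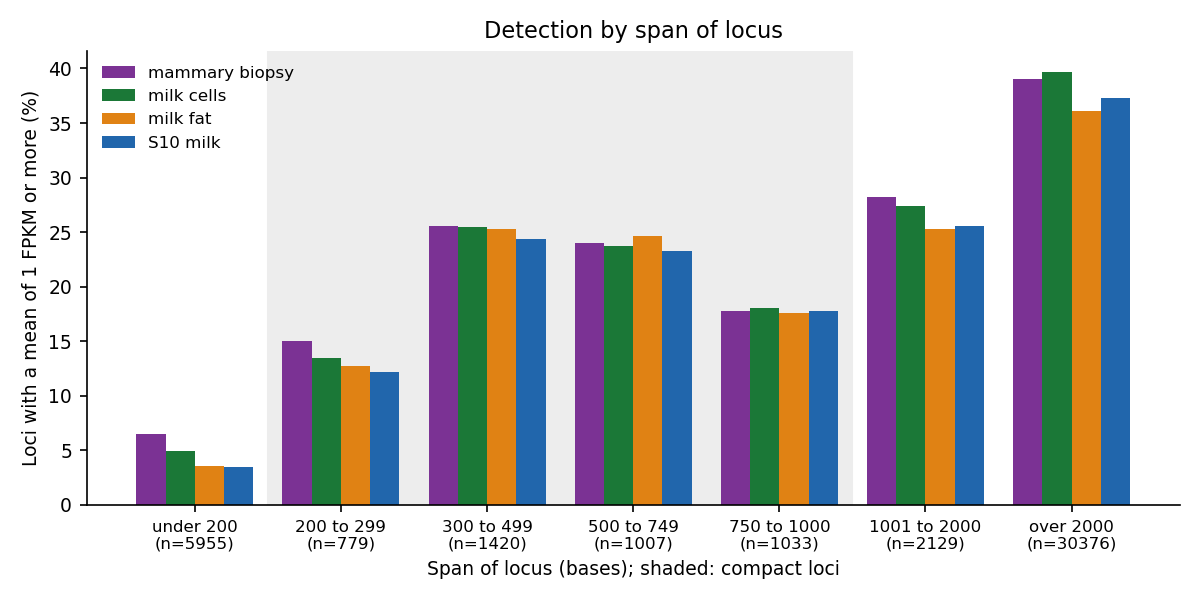
Share of loci with a mean of at least 1 FPKM (vertical axis, %) by span of the locus in bases (horizontal axis), with 1 bar for each of the 4 sample types; n is the number of rows in a span class and the shaded classes are the compact loci. Detection in biopsies goes from 6.46% of rows under 200 bases to 25.6% at 300 to 499 bases, dips to 17.8% at 750 to 1000 bases and reaches 39.1% over 2000 bases.

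The sample types shared most of what was detected. There were 767 compact loci with a mean of at least 1 FPKM in all 4 types and 3191 in none. The largest group outside these was 93 loci detected in biopsies alone, followed by 50 detected in the 3 milk fractions but not in biopsies. Milk fat alone had 36, milk cells alone 17 and S10 milk alone 6.

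The number of compact loci detected per sample overlapped between types, whereas the number at a high level separated biopsies from milk fat. A biopsy held 804 to 969 loci at 1 FPKM or more (median 873.5), a milk cell sample 789 to 998 (median 839), a milk fat sample 824 to 929 (median 852.5) and an S10 milk sample 822 to 894 (median 848). These ranges overlap in every pair of types. The number at 100 FPKM or more was 104.7 ± 14.3 in biopsies (SD, n = 6), 148.9 ± 28.5 in milk cells (n = 12), 182.1 ± 13.8 in milk fat (n = 10) and 155.5 ± 13.2 in S10 milk (n = 6, and 156.8 ± 14.3 without M3). The biopsies ran from 88 to 121 and milk fat from 168 to 209 without overlap, and within an animal milk fat held 76.2 ± 22.4 (SD, n = 6) more such loci than the biopsy, with more in 6 of 6 animals. Counted by the mean of a type, 105, 153, 184 and 157 compact loci were at 100 FPKM or more in the same order of types. For rows over 1000 bases the numbers were 208, 277, 333 and 298, so this order was not particular to compact loci.

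Compact loci took 4.83% ± 0.890 of the summed FPKM in biopsies, 6.37% ± 1.60 in milk cells, 8.34% ± 1.75 in milk fat and 6.58% ± 0.835 in S10 milk (SD, n = 6, 12, 10 and 6), and without M3 the S10 milk samples had 6.69% ± 0.884. Per sample the share ran from 3.89% to 6.06% in biopsies, from 4.43% to 9.66% in milk cells, from 5.70% to 11.3% in milk fat and from 6.03% to 7.91% in S10 milk. Only the day 30 milk fat sample of M6, at 5.70%, fell within the range of the biopsies. Without rows under 200 bases in the total it stood at 8.22% and milk fat ran from 7.22% to 11.8%, above the biopsies at 3.95% to 6.23%. In paired terms the share rose from biopsy to milk fat by 3.53 ± 2.01 percentage points and from milk cells to milk fat by 1.999 ± 1.35, in 6 of 6 animals each. It was higher in milk cells than in the biopsy in 4 of 6 animals (1.54 ± 1.69 points), and lower in S10 milk than in milk fat of the same day in all 6, where the difference was -2.09 ± 1.05 points. With the 20 rows of highest mean in each type left out, the shares were 21.4%, 23.8%, 27.7% and 24.4% in the same order.

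**Figure D2:**
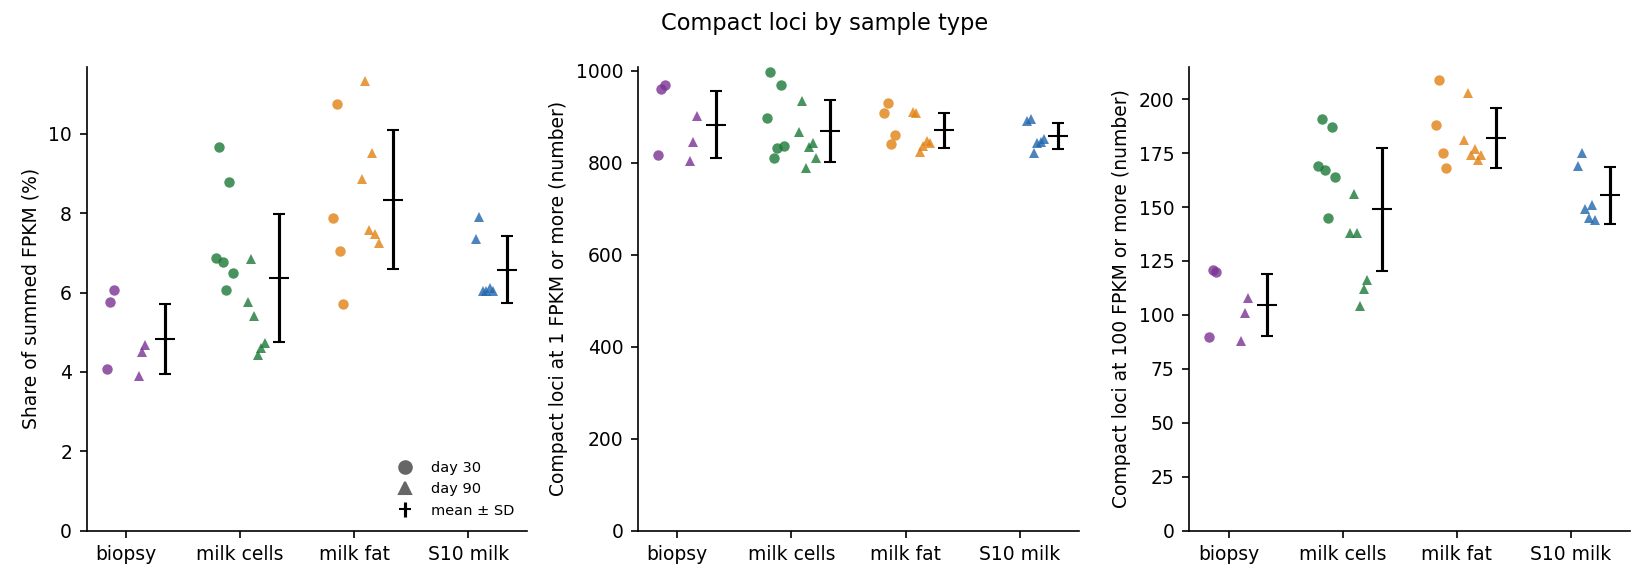
Share of the summed FPKM held by compact loci (left, %), number of them at 1 FPKM or more (middle) and number at 100 FPKM or more (right) in each sample, by sample type; circles are day 30, triangles day 90, and the black marks are the mean ± SD over samples. The counts at 1 FPKM overlap among all types, whereas at 100 FPKM the biopsies (88 to 121) lie below every milk fat sample (168 to 209), and milk cells are lower at day 90 than at day 30.

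The signal was concentrated in few loci. The 50 highest compact loci of a sample held 53.3% to 56.5% of the compact loci's FPKM on average over the samples of a type, and the 5 with the highest mean over the types held 12.6% to 13.97%. Among loci detected in a type the median mean level was 7.84 FPKM in biopsies, 10.8 in milk cells, 13.45 in milk fat and 12.7 in S10 milk. Over all rows detected in a type it was 4.35, 4.80, 5.15 and 5.17 in the same order. The sets of rows detected differ between types.

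The highest compact locus in each of the 4 types was ENSMMUT00000047806, at X 123293385 to 123294143 (759 bases, overlapping no other row). Its means match those of a transcript that the study names FTH1, the heavy chain of the iron store ferritin. FPKM ran from 1281 to 2201 in biopsies (median 1874), from 1338 to 4478 in milk cells (median 2204), from 2418 to 5023 in milk fat (median 3218) and from 2466 to 3653 in S10 milk (median 2737). Every milk fat and S10 milk sample was above every biopsy, while milk cells overlapped all types. From biopsy to milk fat it rose by 0.77 on the log2 scale (SE 0.21, limma adjusted p = 0.0083), in 6 of 6 animals.

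Next came ENSMMUT00000032037 (chromosome 7, 22185782 to 22186583), matched to SERF2, a small protein-aggregation factor, and lying inside a longer row. In biopsies, milk cells, milk fat and S10 milk its mean was 1571 ± 505, 1903 ± 509, 3054 ± 441 and 2106 ± 527 FPKM (SD, n = 6, 12, 10 and 6). It rose from milk cells to milk fat by 0.79 (SE 0.16, limma adjusted p = 0.0019) in 6 of 6 animals, without overlap of the animals' means, and from biopsy to milk fat by 0.80 (SE 0.30, adjusted p = 0.039) in 5 of 6. ENSMMUT00000045245 (chromosome 12, 27428622 to 27428889), matched to ATP5J2, a subunit of mitochondrial ATP synthase, spans only 268 bases. Its biopsies ran from 717.7 to 2071 FPKM and its milk fat samples from 1457 to 2531, which overlap, and the difference between them was 0.33 (SE 0.38, adjusted p = 0.48). From milk cells to milk fat it rose by 0.64 (SE 0.17, adjusted p = 0.0083) in 6 of 6 animals.

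Of the abundant loci without a symbol, ENSMMUT00000015049 (X, 79567126 to 79567519) had means of 1162 ± 276, 1638 ± 409, 2389 ± 532 and 1788 ± 541 FPKM in biopsies, milk cells, milk fat and S10 milk (SD, n = 6, 12, 10 and 6). ENSMMUT00000013017 (chromosome 3, 26505914 to 26506361) had means of 759 ± 156, 1160 ± 326, 1804 ± 398 and 1234 ± 169 FPKM in the same order. Each was higher in milk fat than in biopsies in 6 of 6 animals and without overlap, by 0.84 (SE 0.17, limma adjusted p = 9.7e-04) and by 1.05 (SE 0.16, adjusted p = 1.3e-04) on the log2 scale. ENSMMUT00000031654 (chromosome 1, 115973706 to 115974025) had overlapping biopsies (738.6 to 1158 FPKM) and milk cells (609.5 to 1642), with milk fat at 1237 to 2449. Its difference from biopsy to milk fat was 0.45 (SE 0.22, adjusted p = 0.10).

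A different order was seen for ENSMMUT00000031285 (chromosome 20, 54933882 to 54934792), the only locus among the 5 highest of a type with its lowest mean in milk fat. FPKM ran from 302.5 to 2450 in biopsies (median 693.8), from 356.8 to 2250 in milk cells (median 949.6), from 378.1 to 1680 in milk fat (median 581.9) and from 816 to 1994 in S10 milk (median 1773). The 4 ranges overlap. At day 90 it was higher in S10 milk than in milk fat by 1.02 on the log2 scale (SE 0.34, limma adjusted p = 0.040), in 5 of 6 animals.

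Differences between sample types were tested with limma over all rows with a mean of at least 1 FPKM in the samples compared, and a row was called when its adjusted p was under 0.05 and its change over 3-fold on the log2(scaled FPKM + 1) scale. That scale understates the change of low rows. The comparisons share samples, so the same biopsies enter 3 of them.

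From biopsy to milk fat, 914 of the 4239 compact loci could be tested. Of these, 73 (7.99%) were higher in milk fat, where 3.24% of all 13413 rows tested were, and 60 (6.57%) were lower, where 6.33% of all rows were. Without regard to fold, 461 rose and 120 fell, against 29.9% and 25% of all rows. The median log2 change was 0.55 over the compact loci, 0.07 over all rows and 0.04 over rows over 1000 bases. Rows of 1001 to 2000 bases had 0.32 and rows under 200 bases -0.33, and within the compact loci the 4 span classes had 0.33, 0.64, 0.57 and 0.49 from short to long. Of the 73 higher loci, 71 (97.3%) were higher in all 6 animals and 68 (93.2%) had no overlap between groups, against 93.6% and 86.2% of the 435 rows called higher among all rows. Over all rows tested, 3.03% were called higher in all animals and 2.8% without overlap. The median over compact loci exceeded that over all rows by 0.36 to 0.59 in the 6 animals. In the 3 groups of milk libraries that share the leading number of their titles, with 2 animals each, the excess was 0.57, 0.58 and 0.40. What that number stands for is not stated, and the biopsy of M5 bears another number than its milk. These groups are the same animals again and no separate check. Without scaling of the FPKM the counts were 114 higher and 50 lower, and the median of all rows moved to 0.23 while that of compact loci stayed 0.49 above it.

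**Figure D3:**
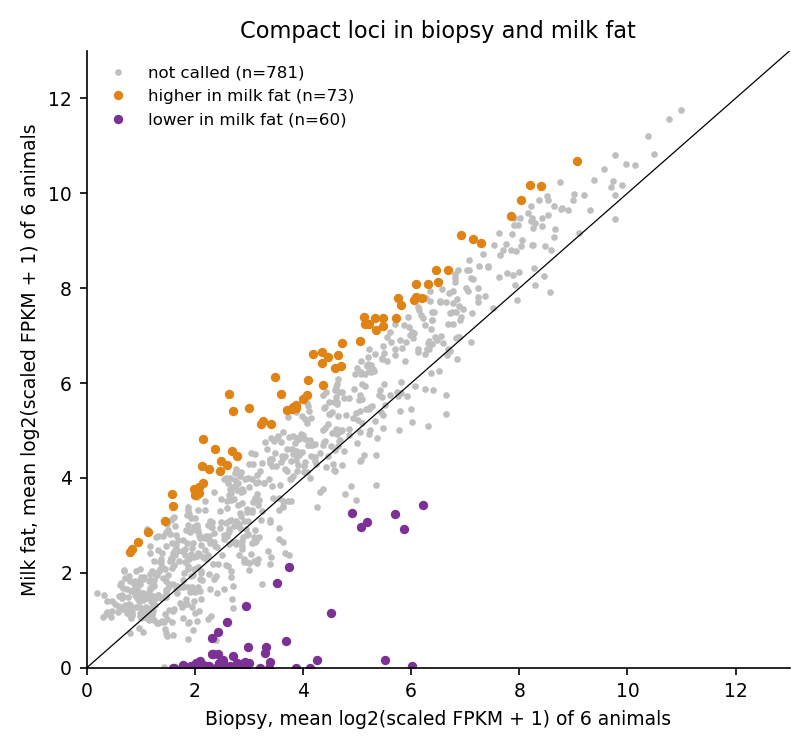
Mean log2(scaled FPKM + 1) over 6 animals in biopsies (horizontal) and milk fat (vertical) for the 914 compact loci tested, 1 point per locus; the line marks equal levels and colours mark the 73 loci called higher and the 60 called lower in milk fat. Higher loci form a band along the upper edge that does not include the loci of highest level, whereas many of the lower loci lie on the floor of the milk fat axis.

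Among loci higher in all animals the largest rise was that of ENSMMUT00000005622 (X, 141916911 to 141917750). Its FPKM ran from 1.71 to 11.8 in biopsies (median 5.49), from 8.24 to 32.45 in milk cells (median 14.35), from 23.3 to 74.8 in milk fat (median 38.85) and from 17.7 to 26.2 in S10 milk (median 21.5). Milk fat and S10 milk did not overlap the biopsies. The rise from biopsy to milk fat was 2.70 on the log2 scale (SE 0.34, limma adjusted p = 3.0e-05) and that to S10 milk 1.72 (SE 0.29, adjusted p = 4.2e-04), each in 6 of 6 animals. The second of these passed 3-fold by little and no longer did without M3 (1.53).

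ENSMMUT00000039605 (chromosome 20, 4962143 to 4962717) was likewise lowest in biopsies and highest in milk fat. It ran from 1.18 to 6.84 FPKM in biopsies (median 3.23), from 2.54 to 26.0 in milk cells (median 13.4), from 15.5 to 73.8 in milk fat (median 24.25) and from 5.27 to 30.0 in S10 milk (median 13.1). Milk fat lay wholly above the biopsies, and the change was 2.65 (SE 0.28, limma adjusted p = 7.3e-06) in 6 of 6 animals.

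The falls were steeper. ENSMMUT00000027995 (chromosome 14, 2029362 to 2029738, 377 bases, overlapping no other row) was at 41.6 to 84.2 FPKM in biopsies (median 48.5). In milk cells it was listed at 0 in 7 of 12 samples and reached at most 0.294 FPKM, in milk fat it was listed at 0 in 8 of 10 and reached 0.272, and in S10 milk it was listed at 0 in all 6. This locus was in effect seen in the biopsied gland and not in milk. The fitted log2 difference was -5.98 to milk fat (SE 0.24, limma adjusted p = 7.5e-10) and -5.91 to milk cells (SE 0.24, adjusted p = 1.5e-09), both bounded by the pseudocount of 1. ENSMMUT00000044639 (chromosome 12, 81611203 to 81611565) ran from 22.8 to 86.6 FPKM in biopsies, up to 2.08 in milk cells, up to 0.734 in milk fat and up to 0.173 in S10 milk. Its fitted differences from biopsy were -5.36 to milk fat (SE 0.37, adjusted p = 1.8e-07), -5.19 to milk cells (SE 0.38, adjusted p = 3.6e-07) and -5.48 to S10 milk (SE 0.36, adjusted p = 1.1e-07). Both loci passed the filter on low values through the biopsies alone and were named for their large falls, so these p-values add no support. Other loci called lower from the biopsy could pass the filter in the same way.

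From biopsy to milk cells, 925 compact loci were tested. Of these 10 were higher, where 1.94% of all rows were, and 45 were lower, where 4.42% were. Counts at any fold were 264 higher and 114 lower, against 21.5% of all rows in each direction, and the median change was 0.21 against 0.02 over all rows. The excess over all rows was above 0 in 6 of 6 animals but ranged from 0.07 to 0.46. Without scaling, 17 were higher and 40 lower. The 10 higher became 6 without M2 or without M3, and 19 with a pseudocount of 0.1.

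The 2 loci that rose most in milk cells among those higher in all animals behaved differently towards milk fat. ENSMMUT00000036269 (chromosome 4, 52594865 to 52595196) ran from 0.261 to 8.92 FPKM in biopsies (median 1.61), from 3.84 to 192.7 in milk cells (median 22.7), from 0.353 to 15.8 in milk fat (median 1.43) and from 0.309 to 8.55 in S10 milk (median 0.744). Milk cells were high and the other types low, with overlap among single samples but no overlap of animals' means between milk cells and either biopsies or milk fat. The rise from biopsy was 2.85 (SE 0.45, limma adjusted p = 2.9e-04) and the fall from milk cells to milk fat was -3.01 (SE 0.40, adjusted p = 2.7e-04), each in 6 of 6 animals. ENSMMUT00000046239 (chromosome 15, 57704461 to 57704710) was at 0.580 to 6.41 FPKM in biopsies and 12.65 to 46.6 in milk cells, without overlap, with milk fat at 4.66 to 18.3 and S10 milk at 7.56 to 23.1. It rose from biopsy to milk cells by 2.62 (SE 0.31, adjusted p = 2.9e-05) and also to S10 milk by 2.08 (SE 0.35, adjusted p = 3.8e-04), in 6 of 6 animals each.

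From milk cells to milk fat, 898 compact loci were tested, with 5 higher, where 0.592% of all rows were, and 7 lower, where 1.15% were. At any fold 378 rose and 45 fell, against 25.6% and 18.1% of all rows, and the median change was 0.36 against 0.05. Among neighbouring spans the median was 0.21 over rows of 1001 to 2000 bases and -0.20 over rows under 200 bases. In the fit with the animal as a block 465 rose and 71 fell at any fold, against 32.1% and 24.1% of all rows. Without M2 there were 3 higher beyond both limits, and without M4, without M5 or without the filter on low values there were 4 lower. Small rises were thus frequent, whereas large ones were about as rare as over all rows (0.557% against 0.592%). The excess of the compact loci over all rows was above 0 in 6 of 6 animals, from 0.04 in M3 to 0.68 in M4.

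Of the 5 higher loci, 4 lay inside a longer row. ENSMMUT00000014614 (chromosome 14, 70298884 to 70299592) ran from near 0 to 4.05 FPKM in milk cells and from 4.64 to 15.6 in milk fat without overlap, a rise of 2.26 (SE 0.26, limma adjusted p = 1.7e-04). ENSMMUT00000023691 (chromosome 6, 147269689 to 147270464) was at most 1.37 FPKM in milk cells and spread from near 0 to 28.4 in milk fat. Its rise of 2.08 (SE 0.64, adjusted p = 0.020) was lost without M2 (adjusted p = 0.072) and without the filter on low values (adjusted p = 0.060). With a mean of 0.37 FPKM in milk cells and 7.66 in milk fat, ENSMMUT00000023691 passed that filter through milk fat alone, so its p-values add no support. The other 3, named after their values were seen, were ENSMMUT00000042435 (chromosome 16, 1454756 to 1455246), ENSMMUT00000040847 (chromosome 16, 77523741 to 77524647) and ENSMMUT00000022880 (X, 7774640 to 7775159). They rose by 1.60 (SE 0.21), 1.82 (SE 0.21) and 1.74 (SE 0.23), and only ENSMMUT00000022880 overlapped no other row. ENSMMUT00000042435 passed 3-fold by little and fell below it in 5 of 14 other settings, with changes of 1.43 to 1.58. Beside ENSMMUT00000036269, the named lower locus was ENSMMUT00000014361 (chromosome 14, 14595053 to 14595380), at 2.30 to 71.1 FPKM in milk cells (median 8.64) and 0 to 7.62 in milk fat (median 0.220). Its samples overlap, and its fall of -2.50 (SE 0.57, adjusted p = 0.0043) was seen in 6 of 6 animals.

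S10 milk stood between milk cells and milk fat in the median change of compact loci from the biopsy. Against the biopsy, 904 were tested, with 16 higher, where 1.82% of all rows were, and 58 lower, where 6.09% were, and the median change was 0.30 against 0.05 over all rows. At any fold 339 rose and 121 fell, against 26.5% and 21.5% of all rows. Without scaling the counts were 28 higher and 53 lower. The count of 16 higher moved with single animals, to 6 without M3, 8 without M1 or without M2 and 25 without M4, and it was 34 with a pseudocount of 0.1. Without M3 the median change was 0.29, against 0.06 over all rows, with 281 risen and 109 fallen at any fold. ENSMMUT00000013480 (chromosome 19, 16861460 to 16861959) rose most among those higher in all animals, with 3.45 to 40.3 FPKM in biopsies (median 9.47) and 34.75 to 96.8 in S10 milk (median 67.8), ranges that overlap, and a rise of 2.35 (SE 0.47, limma adjusted p = 0.0015) in 6 of 6 animals. ENSMMUT00000047584 (chromosome 1, 13158958 to 13159488, inside a longer row) had 0.718 FPKM as the median of biopsies and 8.62 as that of S10 milk. It rose by 2.17 (SE 0.37, adjusted p = 4.4e-04) in 6 of 6 animals.

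At day 90 no compact locus passed both limits between milk fat and S10 milk. Of 868 tested by limma, 0 were higher and 0 lower, where 0.212% and 0.291% of all rows were, and at an unadjusted p under 0.05 there were 61 higher and 376 lower at any fold, against 19.7% and 23.3% of all rows. With an adjusted p under 0.05 at any fold, 32 were higher in S10 milk and 303 lower, against 13.3% and 17.1% of all rows. Blocking on the animal turned these counts into 57 and 416, against 21.5% and 25.6% of all rows, and without M3 they became 16 and 216. The median change was -0.33 over compact loci and -0.02 over all rows, and the compact loci lay below all rows in 6 of 6 animals. It was -0.19 over rows of 1001 to 2000 bases and -0.07 over rows under 200 bases. Without M3 the medians of compact loci and of all rows were -0.33 and -0.02. With the animal as a block 1 locus was called lower, ENSMMUT00000023691 (-1.88, adjusted p = 0.019), named after its value was seen.

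Between milk cells and S10 milk at day 90, 0 of 867 compact loci passed in either direction, where 0.0374% of all rows were higher and 0.284% lower. At an unadjusted p under 0.05 limma gave 159 higher and 21 lower, against 11.7% and 6.99% of all rows. At any fold 4 passed the adjusted p as higher and 0 as lower, against 0.344% and 0.868% of all rows. With the animal as a block these became 48 and 8, against 3.87% and 3.38% of all rows, and 5 loci passed both limits as lower. Named after their values were seen, they are ENSMMUT00000006825, ENSMMUT00000014361, ENSMMUT00000014520, ENSMMUT00000036269 and ENSMMUT00000038471, with log2 differences from -2.38 to -2.02 and adjusted p from 0.0052 to 0.040. ENSMMUT00000014361, with a mean of 0.70 FPKM in S10 milk, passed the filter on low values through milk cells alone, so its p-value adds no support. Others of these loci could have passed in the same way. The median change was 0.24 against 0.06 over all rows, and M3, the animal whose S10 milk is labelled Skim10m, alone of 6 lay below all rows, by -0.14. Without M3 the median change was 0.30 against 0.04, with 48 higher and 3 lower at any fold and 1 higher beyond both limits.

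**Figure D4:**
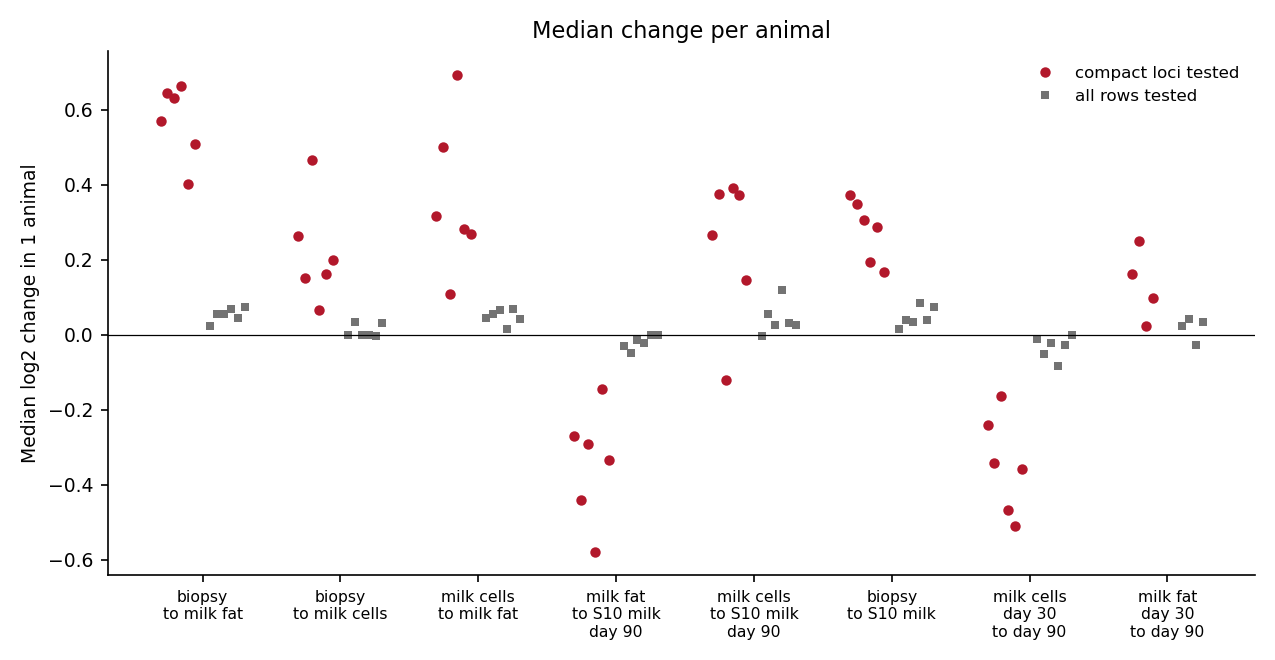
Median log2 change in 1 animal (vertical axis) over the compact loci tested (red circles) and over all rows tested (grey squares) in 8 comparisons, 1 symbol per animal, with the direction of each change named below it. Compact loci lie above all rows in 6 of 6 animals from biopsy to milk fat and below them in 6 of 6 from milk fat to S10 milk and from day 30 to day 90 in milk cells.

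In milk cells the level of compact loci was lower at day 90 than at day 30. Their share of summed FPKM at day 30 was 6.87%, 9.66%, 6.77%, 6.06%, 8.77% and 6.48% in M1 to M6, and at day 90 it was 5.77%, 6.86%, 5.398%, 4.43%, 4.59% and 4.725%. The share was lower at day 90 in each of the 6 animals, by 2.14 ± 1.16 points (SD, n = 6), although the ranges of the days overlap. The number at 100 FPKM or more was also lower in 6 of 6 animals, with a difference of -43.2 ± 17.1. By limma, 892 loci were tested and the median change was -0.35 against -0.04 over all rows, with the compact loci below all rows in 6 of 6 animals and by -0.26, -0.26 and -0.42 in the 3 groups of libraries by leading number of the title. Neighbouring spans fell as well, with a median of -0.15 over rows of 1001 to 2000 bases and -0.21 over rows under 200 bases. No compact locus was higher beyond both limits (0, where 0.0796% of all rows were) and 1 was lower, where 0.0145% were. At an unadjusted p under 0.05 there were 38 higher and 334 lower, against 15.4% and 14% of all rows. At any fold 8 were higher and 36 lower, against 3.53% and 1.57% of all rows. With the animal as a block these counts became 32 higher and 368 lower, against 11.6% and 13.4% of all rows.

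The 1 locus called was ENSMMUT00000036269, the locus described above as high in milk cells. At day 30 it was at 192.7, 103.6, 22.57, 91.95, 89.7 and 22.9 FPKM in M1 to M6, and at day 90 at 7.76, 7.09, 10.7, 3.84, 10.65 and 37.3. It was lower at day 90 in M1 to M5 and higher in M6, and the days overlap. The change of -2.55 (SE 0.56, limma adjusted p = 0.038) passed the threshold in 5 of 12 other settings and missed it in 7, among them 5 of the 6 that leave out an animal. With the animal as a block its adjusted p was 0.028.

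The 3 abundant loci matched to symbols were lower at day 90 in the milk cells of each animal. ENSMMUT00000047806 was lower in 6 of 6 animals by a fitted difference of -0.43 (SE 0.15, limma adjusted p = 0.093, and 0.014 with the animal as a block), and ENSMMUT00000032037 in 6 of 6 by -0.59 (SE 0.19, adjusted p = 0.073, and 0.015 with the block). ENSMMUT00000045245 was lower in 6 of 6 by -0.70 (SE 0.23, adjusted p = 0.079, and 0.015 with the block). Each of these passed an adjusted p of 0.05 only in the blocked fit, and none changed by 3-fold. ENSMMUT00000031285 differed by 0.25 (SE 0.42, adjusted p = 0.73).

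In milk fat no compact locus was called between the days. Of 888 compact loci tested, 0 were higher and 0 lower, as was the case for 0% of all rows, and at an unadjusted p under 0.05 limma gave 54 higher and 14 lower, against 3.38% and 1.86% of all rows. The median change was 0.11, against 0.02 over all rows, and without scaling it was -0.05, against -0.14. In the biopsies, with 3 animals at each day, 906 were tested, and 0 were higher and 0 lower, where 0% of all rows were. At an unadjusted p under 0.05 there were 13 higher and 31 lower, against 1.62% and 1.58% of all rows, and the median change was -0.01.

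Compact loci also lay in clusters. Runs of at least 10 of them with gaps of at most 100 kb numbered 21 and held 416 loci, of which 324 stayed below 1 FPKM in every sample. In these clusters 13.9% of loci were detected in biopsies, 5.77% in milk cells, 4.57% in milk fat and 4.81% in S10 milk, against 22.2%, 22.7%, 22.7% and 21.95% of the 3823 compact loci outside. In 12 of the 21 clusters, with 246 loci, at most 1 locus ever reached 1 FPKM. The largest, on chromosome 14 from 67688146 to 69293669, had 51 loci of a median span of 910 bases, 1 of which did so. A second on chromosome 14, from 16750007 to 17351939, had 36 loci of median span 933.5 bases with 1, and a cluster on chromosome 15 from 55524003 to 55916460 had 16 of median span 571 bases with 0. What genes these clusters hold was not determined here.

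Other clusters were expressed in all sample types. On chromosome 4 from 26010543 to 26323144, 33 loci of median span 394 bases lay together, and 7, 8, 8 and 9 of them were detected in biopsies, milk cells, milk fat and S10 milk. The summed FPKM of this cluster ran from 45.1 to 106.9 in biopsies (median 64.3), from 65.6 to 272.6 in milk cells (median 103.2), from 67.7 to 162.7 in milk fat (median 109.9) and from 71.0 to 113 in S10 milk (median 100.5). These ranges overlap. A neighbouring cluster from 27424157 to 27696517, of 19 loci with the same median span of 394 bases, had 4 detected in each type. Its sums ran from 16.9 to 34.3 FPKM in biopsies and from 47.8 to 88.5 in milk fat, without overlap.

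A set of 3 clusters, singled out after their values were seen, were detected in the gland and hardly in milk. They are on chromosome 10 from 65786965 to 66351239 (25 loci, median span 358 bases), on chromosome 13 from 89755059 to 90290047 (21 loci, 459 bases) and on chromosome 13 from 112971183 to 113484510 (15 loci, 445 bases). Of their 61 loci, 40 were detected in biopsies, 5 in milk cells and 0 in milk fat and in S10 milk, and 35 of the 93 compact loci detected in biopsies alone lay here.

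The chromosome 10 cluster summed to 16.3 to 124.5 FPKM in biopsies (median 70.4) and to 0.216 to 65.9 in milk cells (median 2.15). In milk fat it summed to 0.233 to 2.25 (median 0.497) and in S10 milk to 0 to 1.61 (median 0.405). Every biopsy was above every milk fat and S10 milk sample, while a few milk cell samples reached the biopsies. The cluster at 89755059 gave 16.8 to 105.9 FPKM in biopsies (median 44.0), 0.34 to 39.8 in milk cells (median 1.12), at most 0.751 in milk fat and at most 1.12 in S10 milk. The cluster at 112971183 gave 4.75 to 89.5 in biopsies (median 40.9), 0 to 51.7 in milk cells (median 0.463), at most 0.964 in milk fat and at most 0.51 in S10 milk.

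The same milk cell samples were high in all 3 clusters. The day 90 milk cells of M5 were the highest in each, at 65.9, 39.8 and 51.7 FPKM. The day 30 milk cells of M2 had 44.4, 28.4 and 9.32 and those of M5 had 19.1, 13.4 and 10.1. Loci of these clusters passed the filter on low values through the biopsies, where they were high, which favoured a fall in advance. Of those tested, 22 of 22 were called lower in milk fat, 17 of 26 in milk cells and 22 of 27 in S10 milk. Over all rows tested, 6.33%, 4.42% and 6.09% were called lower in the same order. The 3 clusters hold 22 of the 60 compact loci called lower from biopsy to milk fat.

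**Figure D5:**
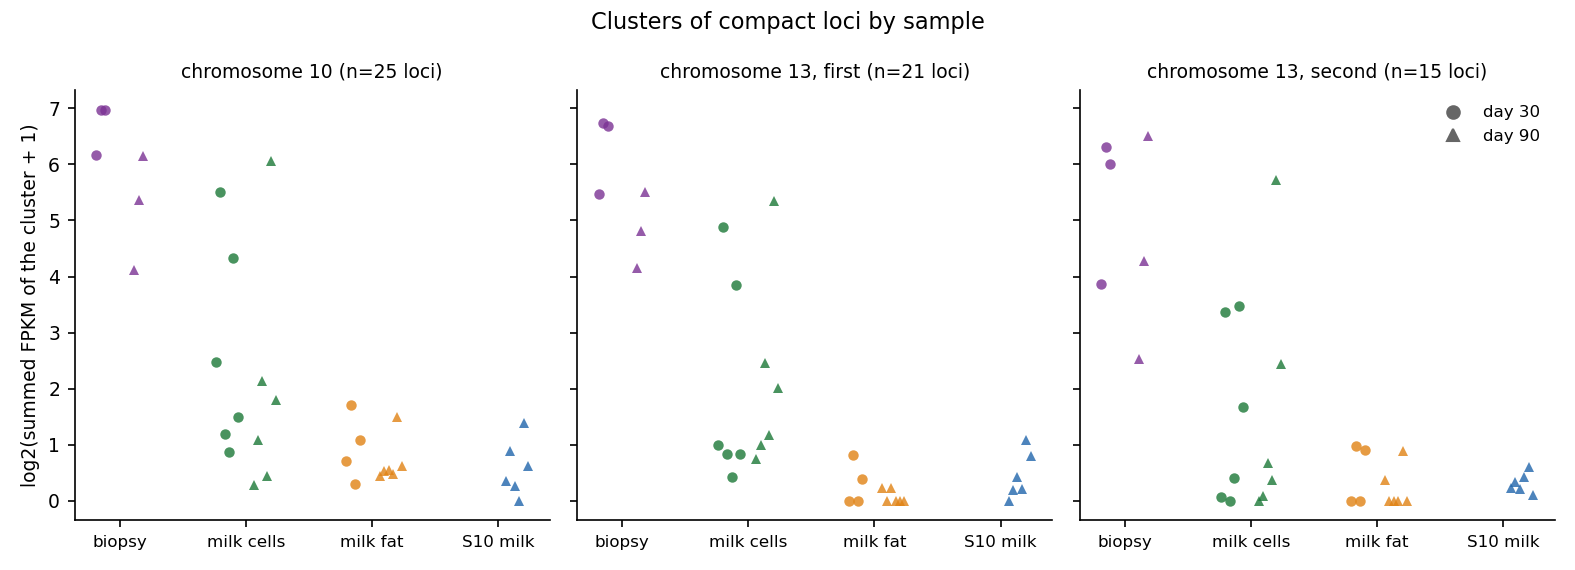
Summed FPKM of 3 clusters of compact loci, as log2(sum + 1) (vertical axis), in each sample by sample type; circles are day 30 and triangles day 90, and n is the number of loci in the cluster. Biopsies are high in each cluster, milk fat and S10 milk lie near 0, and a few milk cell samples, with M5 at day 90 the highest (65.9, 39.8 and 51.7 FPKM), reach the level of the biopsies.

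The shortest compact loci varied most between sequencing runs. Over 490 compact loci with a mean of at least 5 FPKM in every type, the median SD between the 3 sequencing runs of a sample was 0.08 to 0.12 on the log2 scale, and that between animals (at day 90 in the milk fractions) was 0.47 in biopsies, 0.33 in milk cells, 0.34 in milk fat and 0.27 in S10 milk. For 4420 rows over 1000 bases with the same mean the SD between runs was 0.07 to 0.09, and that between animals was 0.39, 0.34, 0.28 and 0.23. For the 57 compact loci of 200 to 299 bases the SD between runs was 0.16 to 0.22, and between biopsies it was 0.70. For the 100 of 750 to 1000 bases the SD between runs was 0.07 to 0.09, as for the longer rows. Of 227 compact loci with a mean above 50 FPKM, 1 was listed at 0 in a run, as were 29 of 468 with a mean above 10 FPKM, so a single 0 in this table need not mean absence of the transcript.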

How the data were processed

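RNA was sequenced from 34 samples of mammary biopsy, milk cells, milk fat and S10 milk, each in 3 runs. The authors made poly(A) libraries, trimmed single reads with Scythe and Sickle, mapped them with TopHat to a Bowtie index of rheMac2, and let Cufflinks estimate the FPKM of each Ensembl transcript. These deposited FPKM values are normalized, and no counts were used here. Reads counted for the study's own tests were not analysed here.

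The 102 columns with labels were averaged over runs to 34 samples, and 6 further columns were not used. For tests, FPKM was divided by median-of-ratios factors taken from the 21792 rows above 0 in all samples, and log2(scaled FPKM + 1) was tested with limma 3.58.1 (R 4.3.3; trend in the prior variance, two-sided, Benjamini-Hochberg adjustment over all rows tested) on rows with a mean of at least 1 FPKM. A row was called at an adjusted p under 0.05 and over 3-fold. An animal's days were averaged on the log2 scale for comparisons of types with biopsies and between milk cells and milk fat, and day 90 alone was used for S10 milk against milk fat and milk cells. Tables were handled with Python 3.11.15 and pandas 2.3.3.

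Same-numbered samples come from the same animal. The correlation of their deviations from the group means was 0.25, 0.30, 0.52 and 0.60 on average for biopsy with milk fat, biopsy with milk cells, milk cells with milk fat and milk fat with S10 milk. Following the study's unpaired tests, the animal as a block was an alternative. The p-values measure the spread between these samples.

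Tested on simulated data with 200 changed rows, the procedure recovered 99% of them with 1 false call from biopsy to milk fat (12958 rows), 99.5% with 1 between milk fat days (13084 rows) and 95.5% with 8 between biopsy days (12542 rows). The changed rows were drawn only from rows well above the filter on low values, and their changes were far over 3-fold. Recovery of smaller changes, or of rows near the filter, was not measured. Alternatives changed the scaling, pseudocount (0.1), filter, variance trend, block, averaging of days and left-out animals. Since FPKM holds no counts, depth was estimated from the smallest steps of low values, and no counting interval is given.

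The compact loci and the lists were chosen with earlier results of these data known. The text names the 5 loci highest in each type, 3 matched to symbols through levels within 5% of the study's lists of abundant transcripts, and in each comparison at most 2 called in each direction and changed alike in all animals, largest change first; others are marked as named after their values were seen. Lists of gene classes and cell type markers could not be read for want of symbols. No sequence is printed, since no genome of the build was used here.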

Additional observations from a re-analysis of the deposited data

Results flagged for a closer look

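Of 68 groups of 4 to 10 samples tested among the named loci, 9 held a sample far from the others, measured as the gap to its nearest neighbour over the whole range. Chance flags about 1 in 20 groups. Values are FPKM, with the median of the group after each.

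In biopsies, ENSMMUT00000031285 was at 2.45e+03 in M6 at day 30 (median 694), ENSMMUT00000014614 at 6.76 in M4 (median 1.37) and ENSMMUT00000047584 at 4.64 in M6 (median 0.718). In S10 milk, ENSMMUT00000044639 was at 0.173 in M4 and listed at 0 in the others, and ENSMMUT00000036269 was at 8.55 in M6 (median 0.744). In the S10 milk of M2, 3 loci lay far above the others, each inside a longer row: ENSMMUT00000023691 at 6.29 (median 0.497), ENSMMUT00000042435 at 26.8 (median 17.7) and ENSMMUT00000040847 at 30.7 (median 17.4). In milk fat, ENSMMUT00000014361 was at 7.62 in M2 at day 30 (median 0.22).

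The share of summed FPKM in compact loci moved in opposite directions with day. In milk cells it changed by -2.14 points from day 30 to day 90, with a lower value in 6 of 6 animals, and in milk fat by 0.918 points, with a higher value in 4 of 4. This difference between the fractions was not tested. Without rows under 200 bases in the total, the change in milk fat was 0.142 ± 0.626 points (SD, n = 4) and positive in 3 of 4 animals, with M6 the exception, while that in milk cells was -2.32 ± 1.26 (SD, n = 6) and negative in 6 of 6.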

How the results depend on the processing

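The total number of compact loci called stayed within 1.5 times its value for biopsy to milk fat, to milk cells and to S10 milk under every alternative run, but the number called higher did not. With a pseudocount of 0.1 it went from 73 to 116, from 10 to 19 and from 16 to 34, and without scaling to 114, 17 and 28. The total counts with that pseudocount were 186, 82 and 111, and these hold all of the 133, 55 and 74 loci called as reported. From milk cells to milk fat the count of 12 became 24 with a pseudocount of 0.1. From milk cells to S10 milk the 0 became 2 with scaling to the 75th percentile and 3 with a pseudocount of 0.1. For milk cell days the 1 became 0 without scaling, 0 without the filter on low values and 3 with a pseudocount of 0.1. The cause was not tested.

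With the animal as a replicate block the counts were 134, 56, 14 and 75 for biopsy to milk fat, biopsy to milk cells, milk cells to milk fat and biopsy to S10 milk. The block gave 1 in place of 0 from milk fat to S10 milk and 5 in place of 0 from milk cells to S10 milk, and it moved no other count of calls by over 1.5 times. No block could be had for biopsy days, where each animal has 1 day.

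Leaving out 1 animal at a time gave 109 to 163, 44 to 63 and 8 to 13 calls for biopsy to milk fat, biopsy to milk cells and milk cells to milk fat. It gave 67 to 83 for biopsy to S10 milk, of which 6 to 25 were higher (6 without M3, 8 without M1 or without M2, 25 without M4), and 6 to 15 higher for biopsy to milk cells. It gave 0 to 1 each for milk fat to S10 milk, milk cells to S10 milk, milk cell days and biopsy days, and 0 for milk fat days.

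At 0.1 FPKM, 1600, 1538, 1418 and 1364 loci were detected in biopsies, milk cells, milk fat and S10 milk, and at 5 FPKM 554, 585, 601 and 577. Biopsies thus had the most loci detected at 1 FPKM and the fewest at 5 FPKM. Without the 20 rows of highest mean in each type the shares of summed FPKM were 21.4%, 23.8%, 27.7% and 24.4%. No call of a named locus turned into a call in the opposite direction, although changes near 0 need not keep their sign.

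The named loci gave 2194 values under the alternatives, of which 2147 kept their side of the threshold, 24 gained it and 23 lost it. Among those lost, ENSMMUT00000042435 fell below 3-fold from milk cells to milk fat in 5 of 14 alternatives. At a given FPKM the shortest loci rest on the fewest reads, and what this did to their detection and calls was not tested.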
